A study of Saccharomyces cerevisiae with 4 samples.

Results

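The control pull-down of an RNA immunoprecipitation experiment is described here: the RNA that came down with Whi3-dRRM-TAP, a tagged form of Whi3 from which the RNA recognition motif had been removed, set against total RNA of the same strain. It takes in the 2 arrays of that group, out of 4 in the series. The budding yeast strains were W303, carried the tagged gene at its own locus under its own promoter, and were grown to log phase in rich medium. The tag's protein A part was bound to IgG beads, and all the RNA recovered from the beads was labelled, so the amount of RNA in the pull-down is not known from the ratio. The other group, Whi3-TAP, had the same tag on the full protein and is used only for 1 set of values and, in some alternatives, for the variance. An untagged strain was not analysed here, so RNA held by the beads and RNA held by the truncated protein cannot be told apart.

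Whi3 is an RNA-binding protein known for its part in the control of cell size: through its RNA recognition motif it holds on to the transcript of CLN3, which encodes a cyclin of G1, and acts as a brake on entry into the cell cycle. It also has a glutamine-rich stretch, which the truncated protein keeps. In a RIP-chip experiment, RNA that comes down without specific binding depends on how much of each RNA is in the extract and on how each RNA sticks to beads, antibody and tag, and a pull-down with a protein that cannot bind RNA in the usual way measures that background.

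On every array the immunoprecipitate was labelled with Cy3 and total RNA with Cy5. Since the dyes were never swapped, an effect of the dye and an effect of the pull-down cannot be told apart in these ratios. The array carried 5738 probes for genes and RNAs, 5682 of them for open reading frames. Once spots marked as poor by the scanner software were left out, 4438 probes had a value on array 1 and 5451 on array 2. Both arrays gave a value for 4348 probes, 1 array for 1193 and neither for 197, and the 4348 are the probes tested.

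Array 1 was the dimmer and rougher of the 2. It kept 48.5% of its gene spots, against 78.0% on array 2. The median probe had a background-subtracted signal of 1019 units in the immunoprecipitate and 540.8 in total RNA on array 1, and 1576 units in the immunoprecipitate and 1496 in total RNA on array 2. Blank spots had a median of 63 units in the immunoprecipitate and 62 in total RNA on array 1, and 95.5 and 95 units on array 2. A probe was called above background where its signal exceeded 2 SDs of the local background. The median limit was 1496 units in the immunoprecipitate and 956 in total RNA on array 1. On array 2 it was 1449 and 1371.5 units. The 95th percentile of blank spots was lower, at 198.2 and 135.65 units on array 1 and 361.55 and 250.65 on array 2. A signal not above background can thus still exceed that of blank spots. On array 1, 730 probes were above background in the immunoprecipitate and 1130 in total RNA. On array 2, 3007 were above it in the immunoprecipitate and 2916 in total RNA. Spots of the same probe had a median SD of 0.45 on array 1 and 0.33 on array 2, in log2 ratio. Of the 4348 probes, 501 (11.5%) were above background in both channels on both arrays, and 667 (15.3%) in the immunoprecipitate on both.

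Before normalization, the ratio of immunoprecipitate to total RNA fell with brightness on both arrays. When probes were put into 10 bins by their mean brightness, the median log2 ratio was 1.43 in the dimmest bin and -0.73 in the brightest on array 1, and 0.85 in the dimmest and -1.08 in the brightest on array 2. A loess curve was subtracted on each array, so each ratio printed below says how far a probe lay from other probes of the same brightness, and not how much of the RNA was pulled down. For bright RNAs the 2 scales differ. For TSA1 on array 2, for example, the log2 ratio was -2.98 before the step and -1.98 after it.

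**Figure D1:**
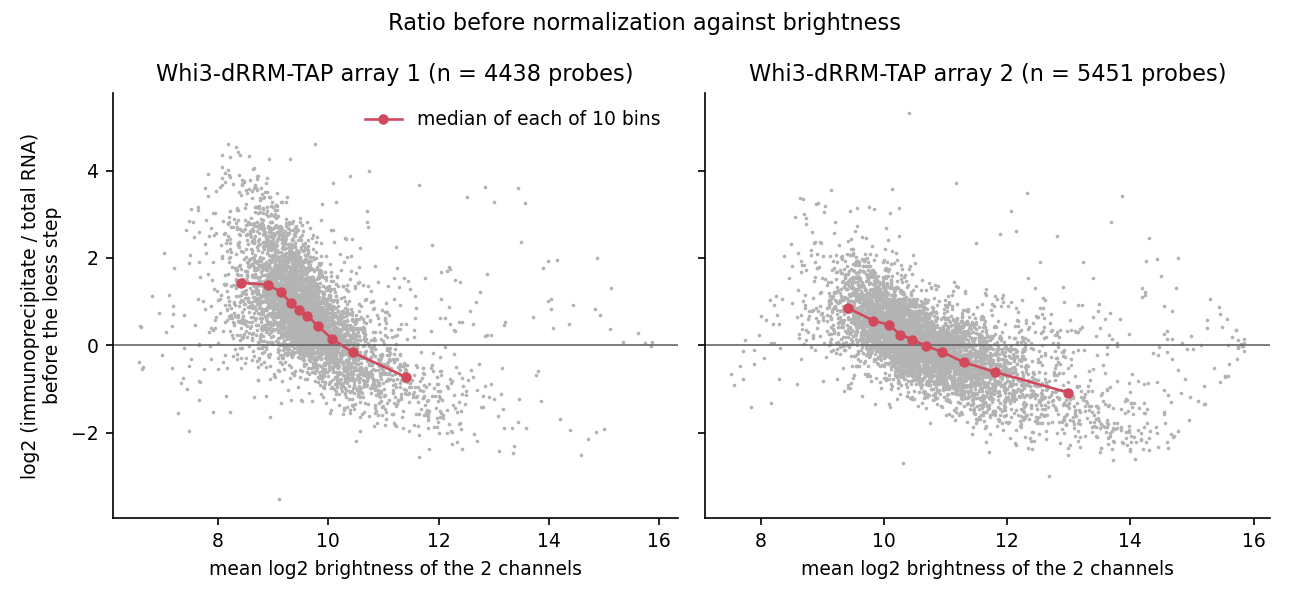
Log2 ratio of immunoprecipitate to total RNA before the loess step (vertical axis) against the mean log2 brightness of the 2 channels (horizontal axis), for each Whi3-dRRM-TAP array; each grey point is 1 probe and each red point the median of 1 of 10 bins. The medians run from 1.43 down to -0.73 on array 1 and from 0.85 down to -1.08 on array 2.

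Across the 4348 probes the ratios of the 2 arrays had a Pearson r of 0.63 and a Spearman rho of 0.60. Across the 501 above background in both channels on both arrays, r was 0.85 and rho 0.85. These are correlations across genes, which are not independent replicates. The pull-down signals themselves had a Spearman rho of 0.62 between the arrays, and the total RNA signals one of 0.88. On array 1, 16.4% of probes with a value were above background in the immunoprecipitate and 25.5% in total RNA. The part of signals near background in the lower rho was not tested.

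In limma's test of the mean ratio against 0, with Benjamini-Hochberg adjustment over all 4348 probes, 64 probes were higher in the immunoprecipitate than in total RNA (1.47% of the probes tested) and 3 were lower (0.069%). At an unadjusted p under 0.05 the counts were 763 higher and 488 lower. Ratios that were only centred on each array's median in place of loess gave 504 higher and 421 lower, and loess within each print sector gave 158 and 55, so the number called and the split between the directions rested on the normalization. The calls ended when the test's expected variance was allowed to change with a probe's mean log2 ratio. None passed, and the smallest adjusted p was 0.083 (limma). The mean ratio is itself the value under test, and a variance that changes with brightness was not tried. All 64 probes called higher kept a ratio above 0 under median centring, and 59 of them stayed called.

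**Figure D2:**
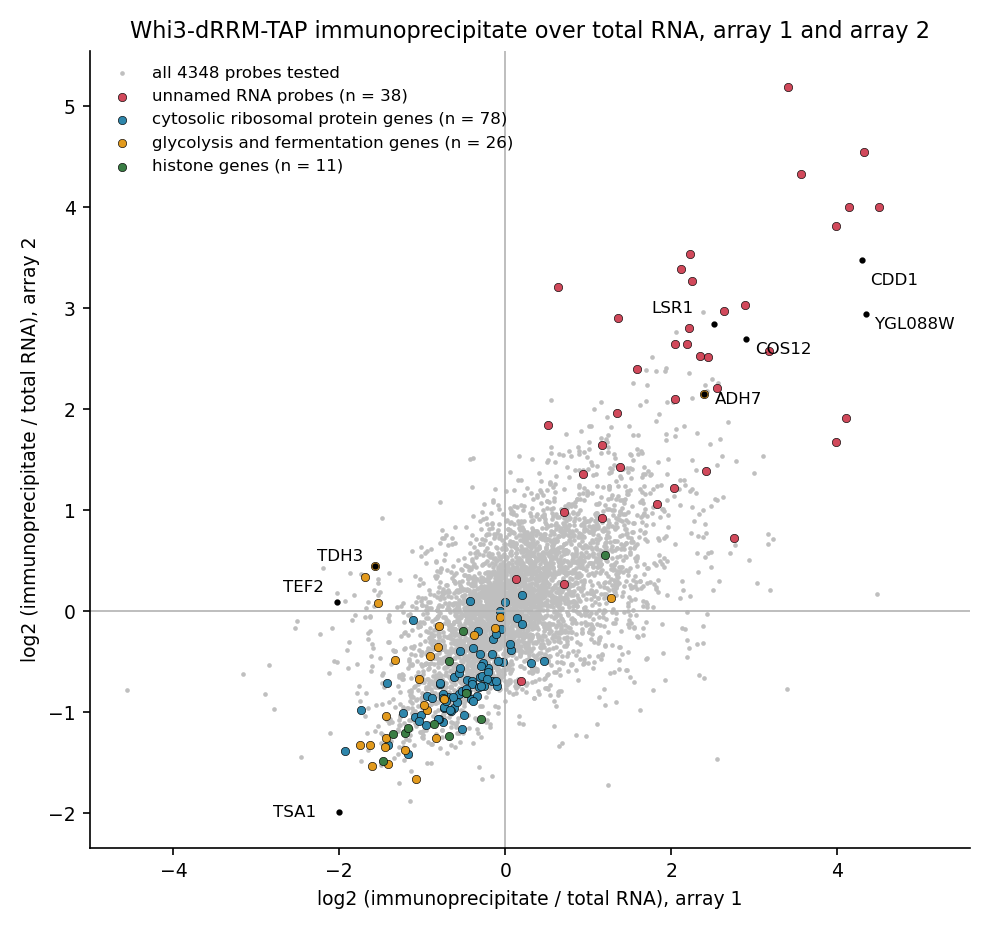
Log2 ratio of immunoprecipitate to total RNA on array 1 (horizontal axis) and array 2 (vertical axis), 1 point for each of the 4348 probes tested, with 4 groups in colour and some genes named in black. Unnamed RNA probes lie at the upper right, genes for histones, glycolysis and cytosolic ribosomal proteins mostly at the lower left, and TEF2 and TDH3 apart from the diagonal.

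The 64 higher probes had mean log2 ratios from 1.58 to 4.44. They were 20 probes for unnamed RNAs, LSR1 and 43 open reading frames. Of the 64, 48 were above background in the immunoprecipitate on both arrays and 4 on neither, while 25 were above it in total RNA on neither array.

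The unnamed RNA probes stood at the top. The array has 52 of them, identified by a number alone and with no gene attached in the files, and 38 were measured on both arrays. Of these, 37 had a ratio above 0 on both arrays, a share of 97.4%, while 39.4% of all probes tested did. In the higher direction 20 passed the test, and none in the lower. Their median ratio was 2.21 on array 1 and 2.46 on array 2, where the median over all probes tested was 0.07 and 0.05. Of the 38, 19 were above background in the immunoprecipitate on both arrays, and 7 in total RNA on both.

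MISC_RNA117667 was above background in both channels on both arrays. Its signal was 26545 and 35164 units in the immunoprecipitate on arrays 1 and 2, against 2082 and 4913 units in total RNA. The pull-down was far brighter than total RNA on both arrays, with a mean log2 ratio of 4.25 ± 0.35 (SD, n = 2 arrays, limma adjusted p = 0.0088). MISC_RNA558652 had the highest mean ratio of all probes, 4.44 ± 0.16 (SD, n = 2, limma adjusted p = 0.0088). Its immunoprecipitate signals were 6972 and 49345 units, and its total RNA signals 384.2 and 4552 units, of which only the second was above background. On the Whi3-TAP arrays, which carried the immunoprecipitate in the same dye, the median ratio of the 38 probes was 1.43 and 0.87. The difference between the groups was not tested.

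Probes for 2 non-coding RNAs with a name were measured. The immunoprecipitate was above background on both arrays for each of them, and total RNA on both arrays for neither. LSR1, the U2 RNA of the spliceosome, had 2551 and 11594 units in the immunoprecipitate, against 297 and 3037 units in total RNA. Its pull-down signal was the higher on both arrays, with a mean log2 ratio of 2.68 ± 0.24 (SD, n = 2, limma adjusted p = 0.026). TLC1, the template RNA of telomerase, had 1836 and 4285 units in the immunoprecipitate and 642 and 3120.5 units in total RNA. Its log2 ratios of 1.32 and 1.06 did not pass the test (limma adjusted p = 0.059). cDNA was primed with oligo-dT, which favours RNAs with a poly(A) tail, and U2 RNA normally has none; the part of priming in these values was not tested.

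**Figure D3:**
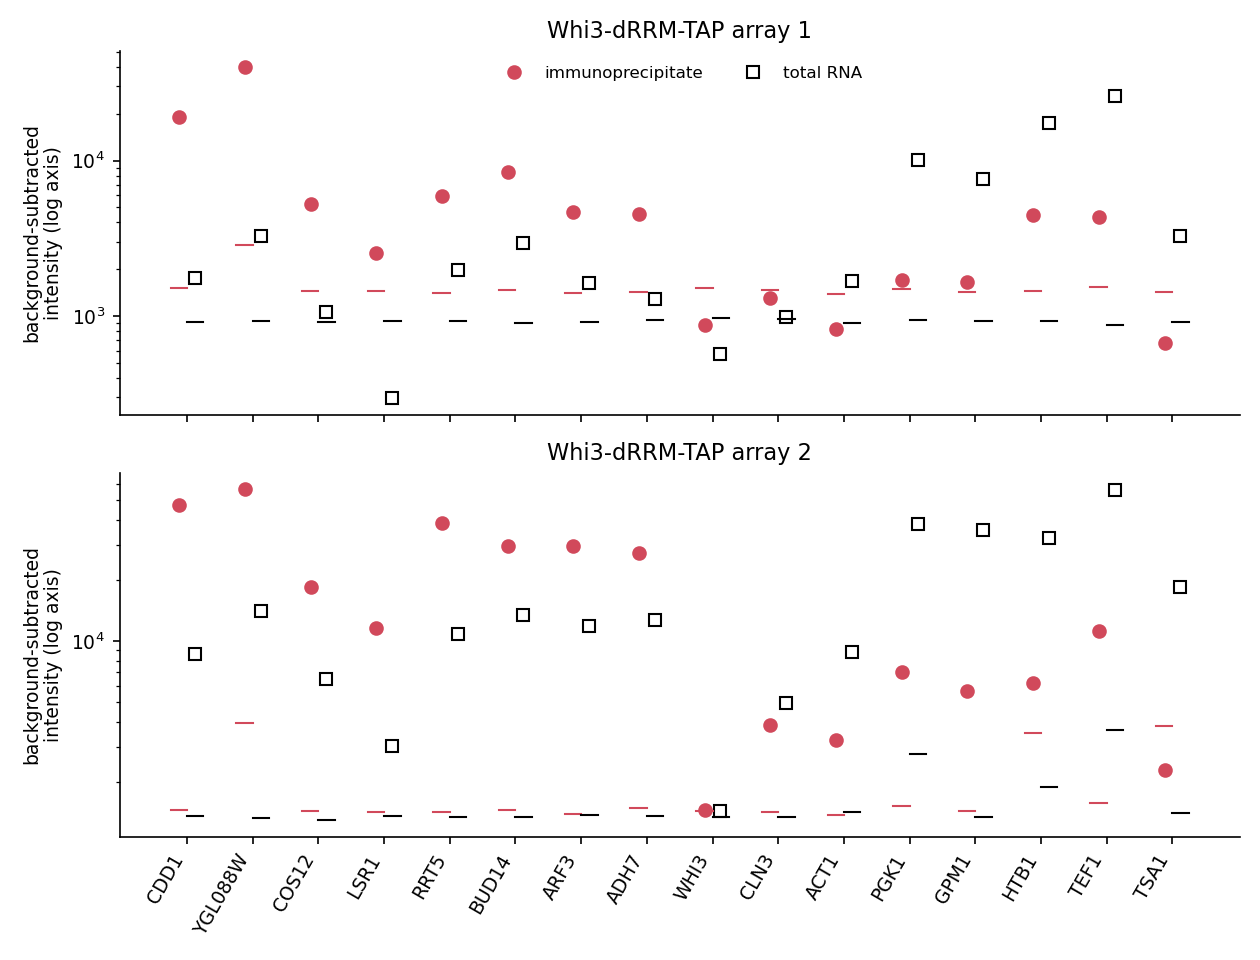
Background-subtracted intensity (vertical log axis) of 16 genes on each Whi3-dRRM-TAP array: red circles are the immunoprecipitate, open squares total RNA, and the short lines the limit of 2 background SDs for each channel. The 8 genes from CDD1 to ADH7 have the circle above the square on both arrays, and the 6 genes from ACT1 to TSA1 have it below.

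Among open reading frames, CDD1, the gene for cytidine deaminase, had the highest mean ratio. Its immunoprecipitate gave 18935 and 47058 units on arrays 1 and 2, and total RNA 1759 and 8596 units. The mean log2 ratio was 3.89 ± 0.58 (SD, n = 2, limma adjusted p = 0.019), which is 14.8-fold relative to probes of the same brightness. YGL088W had 39777 and 56515 units in the immunoprecipitate and 3285.5 and 14076 units in total RNA, a mean log2 ratio of 3.64 ± 0.99 (SD, n = 2, limma adjusted p = 0.027). This reading frame overlaps SNR10, a gene for a small nucleolar RNA, in the RefSeq annotation, and double-stranded probes do not tell strands or overlapping transcripts apart. On array 2 a median of 80.5% of the pixels of its immunoprecipitate spots were saturated.

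A further 10 open reading frames above background in both channels on both arrays had mean log2 ratios from 1.98 to 2.80. COS12, of the COS family of membrane proteins, had 5272.5 and 18446 units in the immunoprecipitate, against 1055 and 6487 units in total RNA. The COS genes are close copies of each other, so its probe may have measured several of them. RRT5 had 5914 and 38644 units in the immunoprecipitate and 1991 and 10845 units in total RNA. BUD14, a regulator of bud site choice and of a protein phosphatase, had 8466 and 29426.5 units in the immunoprecipitate and 2934.5 and 13408 units in total RNA. In all 3 the pull-down was the brighter channel on both arrays, with mean log2 ratios of 2.80 for COS12, 2.67 for RRT5 and 2.31 for BUD14.

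The others of this set were YMR181C, ARF3, IML1, ADH7, FYV4, DPC29 and YLR162W. ARF3 encodes a small GTPase of cell polarity, and its log2 ratios were 2.22 and 2.36. IML1 encodes a subunit of the complex that restrains TORC1, and its ratios were 2.69 and 1.87. ADH7, a gene for an alcohol dehydrogenase that uses NADPH, had 2.40 and 2.16. Each of these 3 lay above 1.8 on both arrays, and the 10 reading frames had adjusted p-values between 0.024 and 0.037 (limma). The coding genes called higher and present in the RefSeq annotation numbered 42. Of these, 1 (YGL088W) overlapped a non-coding RNA gene of the types counted and 3 (7.14%) lay within 500 bp of one. The others of the 3 were YLR162W and RRT5. The types counted included snoRNA, snRNA, rRNA, antisense RNA and other ncRNA. Over all 4237 coding genes tested, 17 overlapped such a gene and 115 (2.71%) lay that close.

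For 52 probes the immunoprecipitate was above background on both arrays and total RNA on neither, so their folds are lower bounds. Here and below, a bound sets the brighter channel against the dimmer one raised to the lowest signal still above background on that array or, where higher, to the probe's own limit of 2 background SDs, a step added after the data were seen. The bound is open to a dye effect. Both channels are taken after the loess step, so a bound is relative to probes of the same brightness. CCZ1, a gene for part of the exchange factor that acts on the vacuole's Rab GTPase, had 2944 and 2612 units in the immunoprecipitate, against 489 and 363 units in total RNA. It was at least 2.16-fold higher in the immunoprecipitate (limma adjusted p = 0.026), from 1 kept spot on each array. YDR010C was at least 1.17-fold higher (limma adjusted p = 0.030). MCO32 and RCK1, a protein kinase gene of the oxidative stress response, also passed (limma adjusted p = 0.037 and 0.047), but their bounds were under 1 and no fold is given. MCO32 had 1 kept spot on array 1. YPR092W shows how far 2 arrays can part with few spots at this level. Its log2 ratios were 3.17 from 1 kept spot on array 1 and 0.67 from 3 on array 2, and it did not pass (limma adjusted p = 0.11).

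The 3 probes that passed in the lower direction were TSA1, CYC1 and ENO1. TSA1 encodes the main cytosolic peroxiredoxin, CYC1 the cytochrome c of the respiratory chain and ENO1 an enolase of glycolysis. TSA1 had 674 and 2300 units in the immunoprecipitate, above background on neither array, against 3272 and 18484 units in total RNA. Its log2 ratios were -2.0 and -1.98 (limma adjusted p = 0.030). Total RNA was at least 2.11-fold above the immunoprecipitate, relative to probes of the same brightness. CYC1 had 763.5 and 2029 units in the immunoprecipitate and 3091 and 9800 units in total RNA, with log2 ratios of -1.73 and -1.48. ENO1 had 611.5 and 6958 units in the immunoprecipitate and 1513 and 42977.5 units in total RNA, with log2 ratios of -1.61 and -1.53. Both had an adjusted p of 0.048 (limma) and were above background in the immunoprecipitate on 1 array.

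The low end of the ratios was crowded just outside the threshold. A further 55 probes below 0 had an adjusted p from 0.05 to under 0.06, the smallest being 0.051, and 102 probes above 0 lay in the same range. Of the 100 lowest mean ratios, 60 belonged to probes above background in total RNA on both arrays. Over all probes with a value, 25.5% were above it in total RNA on array 1 and 53.5% on array 2. The 3 genes that follow did not pass the test and are given as values. TEF1, for translation elongation factor eEF1A, had 4320 and 11254 units in the immunoprecipitate, against 26098 and 56227 units in total RNA. HTB1, for histone H2B, had 4450 and 6197 units in the immunoprecipitate, against 17556 and 32426 units in total RNA. PGK1, for phosphoglycerate kinase, had 1704 and 7066.5 units in the immunoprecipitate, against 10096 and 38072 units in total RNA. Total RNA was the brighter channel on both arrays for all 3, and their mean log2 ratios were -1.52, -1.48 and -1.47 (limma adjusted p = 0.053 for each). TEF1 was saturated in total RNA on array 2, over 67% of the spot's pixels.

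The 15 lowest among probes above background in both channels on both arrays had mean log2 ratios from -1.52 to -1.09. Beside the 3 above they were GPM1, ADH2, FBA1 and TDH1 of glycolysis and fermentation, the histone genes HHT1, HTB2 and HHT2, the chaperone genes SSA2 and HSP82, the cell wall genes CIS3 and CCW12, and YHB1, a nitric oxide scavenger. On array 2, 7 of the 15 (TEF1, ADH2, SSA2, HHT1, CCW12, TDH1 and HHT2) were saturated over at least 50% of the spot in total RNA, so the scanner limits their ratios there. Several have a near-identical copy in the genome (the TDH, SSA and HHT genes, and ADH2 with ADH1), and a spotted probe can bind both transcripts, so the copies cannot be separated.

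Gene groups followed the same order. Histone genes had a median log2 ratio of -0.68 on array 1 and -1.12 on array 2 over 11 genes, 10 of them below 0 on both arrays, as were 32.4% of all probes tested. The exception was CSE4, the centromeric histone H3 variant, with 1.20 and 0.56. It was above background on 1 array in each channel and did not pass the test (limma adjusted p = 0.11). Genes of glycolysis and alcoholic fermentation had medians of -1.06 and -0.77 over 26 genes, with 21 below 0 on both arrays; ENO1 was the 1 that fell and ADH7, which is not part of the main fermentation route, the 1 that rose. Cytosolic ribosomal protein genes had medians of -0.46 and -0.73 over 78 genes, with 68 (87.2%) below 0 on both arrays. None of the 78 passed the test. RPL36A had the lowest mean ratio, with -1.93 and -1.38 and an immunoprecipitate above background on neither array. RPP2A, an acidic stalk protein gene, had the highest mean ratio, with 0.21 and 0.16. With median centring RPP2A turned to a mean of -0.89. The medians of these 3 groups stayed below 0 in each of the 13 other ways of processing that were tried.

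Translation factor genes had medians of -0.48 and -0.36 over 40 genes, 27 of them below 0 on both arrays, with none past the test. STM1, which clamps idle ribosomes, had -1.23 and -1.30, and GCD2, a subunit of the exchange factor eIF2B, had 0.71 and 1.21. Proteasome genes had medians of -0.25 and -0.52 over 36 genes, and genes of translocation and folding in the endoplasmic reticulum -0.33 and -0.42 over 37. In the second of these groups SEC72, of the translocon, had -1.69 and -1.03, with an immunoprecipitate above background on neither array, and EUG1, a protein disulfide isomerase gene, 1.71 and 0.70. Amino acid biosynthesis genes had medians of -0.40 and -0.29 over 70 genes, with ILV5, of the branched-chain pathway, at -1.28 and -1.34. No gene of these 4 groups passed the test in either direction.

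Heat shock and chaperone genes had medians of -0.39 and -0.37 over 42 genes, but were spread widely. HSP82, for the Hsp90 chaperone, had -1.07 and -1.11. HSP32, of a family of chaperone-like genes, had 1.51 and 1.55, with a total RNA signal of 146.5 and 287.5 units that was above background on neither array. Nuclear genes of the respiratory chain had medians of -0.07 and -0.33 over 37 genes, with CYC1 the 1 that fell and COX5B, the isoform of subunit Va made at low oxygen, at 1.15 and 2.07. The peroxiredoxin group also held thioredoxin, superoxide dismutase, glutaredoxin, glutathione peroxidase, glutathione reductase and catalase genes. It had medians of -0.19 and -0.22 over 22 genes, with TSA1 the 1 that fell. AHP1, another peroxiredoxin gene, had -1.14 and -1.16. Under each scaling tried, the medians of the translation factor, proteasome, endoplasmic reticulum, amino acid, chaperone, respiratory and peroxiredoxin groups stayed below 0, but over the members above background in both channels alone the respiratory median was 0.55 (3 genes) and the endoplasmic reticulum one 0.027 (4 genes).

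Other groups lay near the median of all probes. Mitochondrial ribosomal protein genes had medians of 0.04 and 0.07 over 70 genes. MRPL19, with log2 ratios of 1.54 and 1.75, was the 1 that passed (limma adjusted p = 0.047). Its total RNA was above background on 1 array, and it had 2 kept spots on each array. Plasma membrane transporter genes had 0.17 and 0.11 over 59, ribosome assembly factors 0.24 and -0.03 over 82, and genes of mRNA decay and translational repression -0.03 and -0.13 over 49. GAR1, for a protein of the H/ACA small nucleolar ribonucleoproteins, had the highest mean ratio of the assembly factors, with 1.68 and 1.43. FUR4, the uracil permease gene, had 1.22 and 1.68, and LSM3, of the Lsm ring that binds RNA ends, 1.15 and 1.57. None of these 3 passed (limma adjusted p from 0.051 to 0.054).

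Cell wall protein genes had medians of -0.30 and -0.15 over 52 genes, with BGL2, a glucan-modifying enzyme gene, at -1.34 and -1.45 and NCA3, whose total RNA was above background on neither array, at 2.15 and 1.30. Genes of glycine cleavage and one-carbon metabolism had -0.42 and -0.48 over 11, and helicase and chromatin remodeler genes 0.02 and 0.19 over 17. No member of these 3 lists passed the test.

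**Figure D4:**
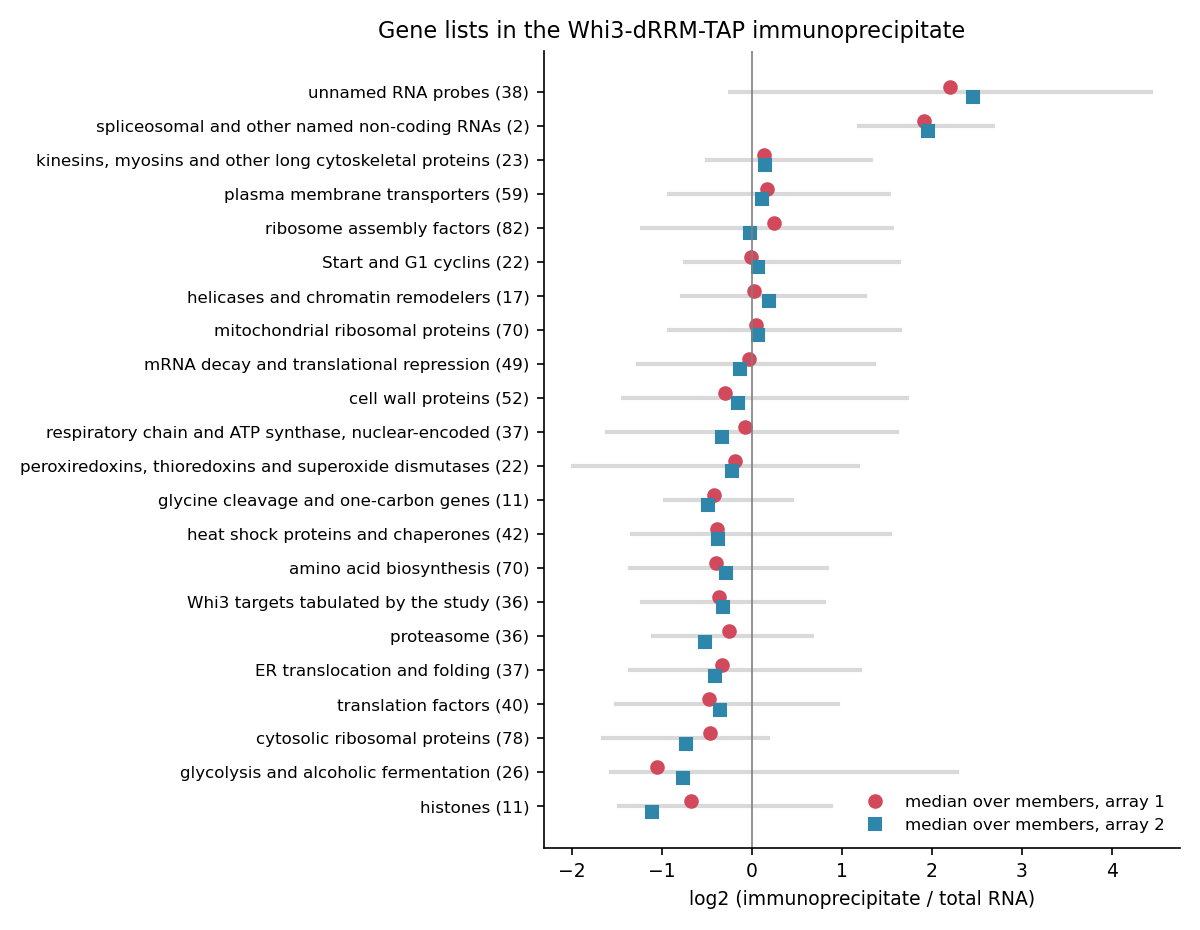
Median log2 ratio of immunoprecipitate to total RNA over the members of each gene list on array 1 (red circles) and array 2 (blue squares), with the number of members measured in brackets; the grey line spans the lowest to the highest mean ratio of single members. Unnamed RNA probes have medians of 2.21 and 2.46, and histone genes of -0.68 and -1.12.

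RNAs with a strong total RNA signal had low ratios in general. Probes were ranked by the total RNA signal of 1 array and the ratio was read from the other, so that the 2 measures shared no spots. They are still not independent. Total RNA is the denominator of the ratio, and its signals had a Spearman rho of 0.88 between the arrays. A fall of the ratio with total RNA can thus come from the measure itself, and whether it belongs to the pull-down was not tested. In 5 bins of equal size, the bin with the weakest total RNA on array 2 had a median log2 ratio of 0.65 on array 1, and the bin with the strongest had -0.22. In the other direction, the weakest bin by array 1 had a median of 0.30 on array 2, and the strongest had -0.20. The medians fell at each step between these ends. With median centring alone the span was wider, from 1.36 to -0.85 on array 1 and from 0.72 to -0.92 on array 2. Spearman's rho across the 4348 probes was -0.35 for the ratio of array 1 and -0.28 for that of array 2, each against the total RNA of the other array.

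**Figure D5:**
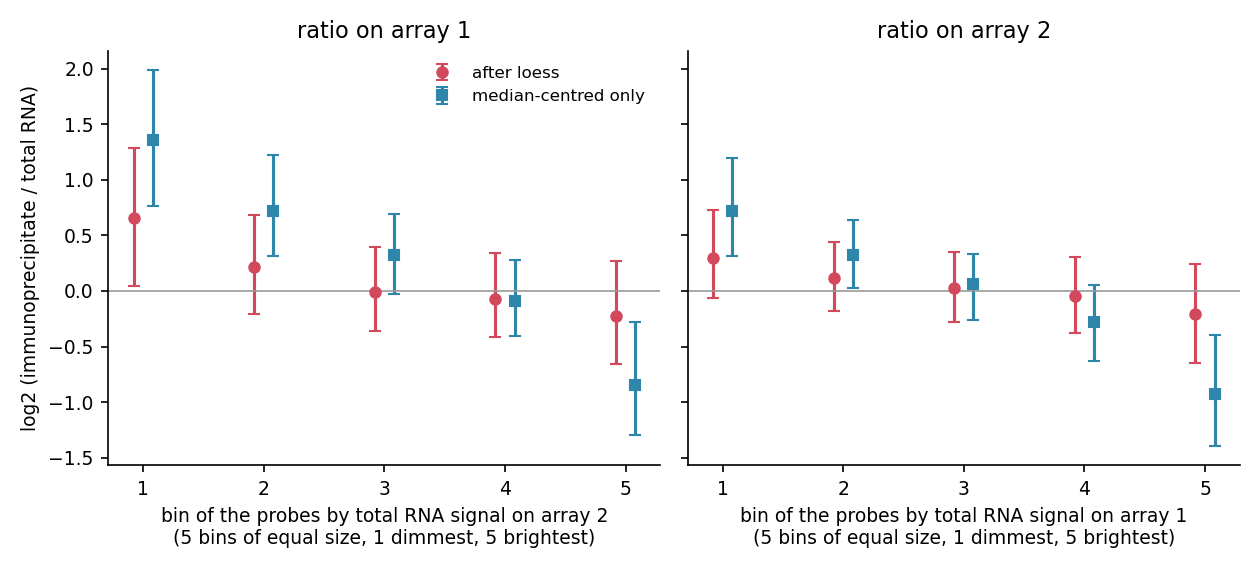
Median log2 ratio of immunoprecipitate to total RNA (vertical axis, bars from the lower to the upper quartile of probes) in 5 bins of total RNA signal taken from the other array (horizontal axis), after loess (red circles) and with median centring only (blue squares). After loess the medians go from 0.65 to -0.22 on array 1 and from 0.30 to -0.20 on array 2.

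Gene length went with the ratio only weakly. Across the 4237 coding genes matched to RefSeq, Spearman's rho of length and ratio was 0.08 on array 1 and 0.16 on array 2. Of 5 bins by length, the shortest reading frames had a median log2 ratio of -0.02 on array 1 and -0.06 on array 2, and the longest 0.15 and 0.13. Genes for kinesins, myosins and other long cytoskeletal proteins had medians of 0.13 and 0.15 over 23 genes, with MYO1, the type II myosin of the division ring, at 0.95 and 1.22 (limma adjusted p = 0.066).

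CLN3, the G1 cyclin gene of the Whi3 circuit, had 1298 and 3827 units in the immunoprecipitate, above background on 1 array, and 988.3 and 4926 units in total RNA. Its log2 ratios of 0.26 and 0.32 did not pass the test (limma adjusted p = 0.44), and with median centring the mean turned to -0.15. WHI3 itself had 878.8 and 1454 units in the immunoprecipitate and 568.2 and 1441 units in total RNA, with ratios of -0.12 and -0.03 (limma adjusted p = 0.85). A probe for the whole reading frame does not check the deletion in the tagged gene. WHI4, its paralog, had ratios of 1.10 and 0.50, and the actin gene ACT1 -1.17 and -0.56, neither past the test (limma adjusted p = 0.12 and 0.11).

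The study picked its Whi3 targets on the 4 arrays of this series by how far Whi3-TAP lay above Whi3-dRRM-TAP, so their ratios here are no independent evidence. Of the targets it tabulated, 36 were measured, with medians of -0.37 on array 1 and -0.32 on array 2. None passed the test in either direction, and 25 were below 0 on both arrays, a share of 69.4% against 32.4% of all probes. By mean ratio ANB1, an eIF5A gene used at low oxygen, was lowest with -1.36 and -1.09, and TMC1 highest with 0.80 and 0.80. CLN3 ranked just below TMC1. Genes of Start and the G1 cyclins had medians of -0.01 and 0.07 over 22 genes, with CLN2 at -0.92 and -0.56 and XBP1, a stress-induced repressor of cyclin genes, at 2.25 and 1.03 with total RNA above background on neither array.

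The brightest spots of the immunoprecipitate could not give ratios of the same quality. The 15 brightest probes averaged 45374.5 to 59911 units over the 2 arrays, and all 15 had saturated pixels over at least 50% of the spot on array 2, where 10 of them were saturated in total RNA as well. URA3, for an enzyme of pyrimidine synthesis, had 61742 and 57241 units in the immunoprecipitate and 58142 and 57675 units in total RNA. MSA2, for an activator of G1 transcription, had 46493 and 44256 units in the immunoprecipitate and 45792.5 and 44202 units in total RNA. Both were saturated in both channels on both arrays, so no fold is given. FIP1, of the polyadenylation factor, and COP1, of the vesicle coat, were saturated in the immunoprecipitate on array 2 alone, and their log2 ratios were 2.53 and 2.55 on array 1, and 1.11 and 1.11 on array 2.

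Among probes above background in both channels on both arrays, the 5 with the widest gap between the arrays were 2 unnamed RNA probes, TEF2, TDH2 and TDH3. TEF2, whose protein is identical to that of TEF1, had 10309.5 and 38243 units in the immunoprecipitate, against 58826 and 60611 units in total RNA. Its log2 ratios were -2.03 on array 1 and 0.09 on array 2. TDH2 and TDH3, genes for glyceraldehyde-3-phosphate dehydrogenase, had -1.69 and -1.57 on array 1, and 0.34 and 0.45 on array 2. All 3 were saturated in total RNA on both arrays, so these values are bounded by the scanner and no direction is read from them. When spots with at least 50% of saturated pixels were left out, 76 probes were higher and 3 lower.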

How the data were processed

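RNA was measured on homemade arrays of double-stranded PCR probes, 2 for each of 2 groups. The deposited scanner tables hold, per the file headers, the intensity of each spot and of its surroundings for either dye, and the percent of saturated pixels, with nothing yet subtracted. The deposited series matrix holds the authors' log2 ratio per probe, which is background-subtracted and loess-normalized and averaged over spots by the study's methods; it was used only as an alternative. Its columns correlated with the ratios computed here (r = 0.76 and 0.78), so they run as immunoprecipitate over total RNA, and their medians were 1.08 and 0.52, so they were centred first. The deposited log2 ratio of each spot runs the other way and was used only to check direction. The image software's version and a genome build are not given in the sources used here.

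Spots with a negative flag and 480 probes for 3′ UTRs were left out. Normexp (offset 50) on mean foreground and median background was followed by loess on each array's log2 ratios, and the spots of a probe (median 4) were averaged. The mean of the 2 arrays was tested against 0 with limma 3.58.1 (lmFit and eBayes) in R 4.3.3, a two-sided test with Benjamini-Hochberg adjustment over 4348 probes at 0.05. It had 1 residual degree of freedom and 4.23 prior ones. The labels call the arrays biological replicates. Named genes were the 15 highest and 15 lowest ratios among probes above background in both channels, with the lowest 15 taken without the test since fewer than 10 passed, the 15 brightest in the immunoprecipitate, the most extreme probes above background in 1 channel, up to 4 high and 4 low members of each list, 4 genes by name and the 5 widest gaps between arrays. The arrays, gene lists and tests were chosen with earlier results of these data known. Symbols, lengths and distances came from RefSeq (R64), which 5548 of 5738 probes matched by systematic name. The fit was tested on simulated data, where more than the nominal share of its calls was false. The number of arrays limits the precision. Alternatives changed the background correction, the normalization, the spots kept, the probes tested, the variance model and the arrays in the fit.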

Additional observations from a re-analysis of the deposited data

Results flagged for a closer look

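Outside the gene probes, 2 control probes gave a signal above that of blank spots in the immunoprecipitate of both Whi3-dRRM-TAP arrays, with flags ignored. The control probe named SP GPD1 had a median Cy3 signal of 229.5 units on array 1 and 2167 on array 2, and SP GPD3 had 238.5 and 1243.5 units. In total RNA, SP GPD1 had 118 and 6964.5 units on arrays 1 and 2, and SP GPD3 103.5 and 2371 units. On array 2 total RNA was thus the brighter channel for both. The limit was the 95th percentile of the 288 blank spots, which was 198.2 units on array 1 and 361.6 on array 2. SP ACT1, SP ENO1, SP HTB1 and SP PYK1 exceeded it on array 1 alone, with 237.5, 254.5, 288.5 and 281 units.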

How the results depend on the processing

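The counts of 64 higher and 3 lower probes moved by over 1.5 times under all but 1 of the alternatives, the exception being the removal of saturated spots. Higher and lower counts were 452 and 226 with no background correction, 504 and 421 with median centring, 158 and 55 with loess per print sector, 622 and 482 with flagged spots kept, and 166 and 40 with the median over spots. They were 143 and 75 when the 501 probes above background in both channels on both arrays were tested alone. With the deposited series matrix they were 428 and 756. With a variance that follows the mean log2 ratio they were 0 and 0, where 596 and 654 had an unadjusted p under 0.05. The Whi3-TAP arrays share replicate numbers with these. With all 4 arrays setting the variance, the counts were 586 and 396 with no replicate block and 599 and 385 with the replicate block. Differences between replicates 1 and 2 had r = 0.22 across the groups, which with 2 pairs does not settle whether numbers mark pairs. Leaving out an array, with its partner assumed to vary like the Whi3-TAP arrays, gave 691 higher and 537 lower without replicate 1, and 1106 higher and 719 lower without replicate 2. The cause of these shifts was not tested.

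Of the 64 higher probes, 33 of the 42 in the series matrix were called in it, and 63 with loess per print sector. Ratios near 0 changed sign. With median centring the means were -0.15 for CLN3, -0.89 for RPP2A, -0.017 for TMC1 and 0.18 for WHI3, and the mRNA decay median was 0.029. With the series matrix they were -0.45 for CLN3, -0.011 for LSM3, -0.10 for MYO1, -0.33 for TMC1 and -1.21 for RPP2A (limma adjusted p = 0.019), and list medians were -0.14 for mitochondrial ribosomal proteins, -0.34 for transporters and -0.11 for Start. RPP2A was -0.014 and TDH2 0.93 with loess per print sector. With flagged spots kept RPP2A was -0.090, and the medians of mitochondrial ribosomal proteins and Start were -0.019 and -0.059. Over probes above background alone, medians were 0.17 for one-carbon genes, 0.55 for the respiratory chain, 0.027 for the endoplasmic reticulum and 0.17 for mRNA decay. Leaving out 1 array, TDH2 ranged from -1.69 to 0.34, TDH3 from -1.57 to 0.45, TEF2 from -2.03 to 0.089 and the Start median from -0.0073 to 0.071.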
